A study of Mus musculus with 12 samples.

Results

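AMPA receptors carry most of the fast excitatory current at synapses of the cerebellar cortex, and 10 genes for their subunits and auxiliary proteins were followed here across 3 diets. The genes were named by symbol: the 4 pore-forming subunits Gria1, Gria2, Gria3 and Gria4, the transmembrane AMPA receptor regulatory proteins (TARPs) Cacng2 and Cacng5, the cornichons Cnih2 and Cnih3, and the cystine-knot AMPA receptor modulating proteins (CKAMPs) Shisa6 and Shisa9. All 10 were matched among the 54752 genes of the count table, and all 10 passed the filter on low counts in every comparison. On dietary restriction (DR), Gria1, Gria4, Cacng5 and Shisa9 RNA was lower than on ad libitum feeding (AL) and lower than on a ketogenic diet (KD), with decreases between 11.3% and 37.6%. The calls of Cacng5 and Shisa9 held in both comparisons whichever library was left out, that of Gria1 against AL only, and that of Gria4 in neither. Gria2 RNA did not pass the test in either comparison, and its share in the RNA of the 4 subunits was larger in every DR library than in any library of the other diets.

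Poly(A) RNA was sequenced from cerebellar cortex of 12 male mice, 4 on each diet, all wild type (WT), of the F1 hybrid strain C57BL6J/FVB and 12 weeks old. AL mice ate without limit. DR mice had a reduced daily portion, brought down in steps and given before the dark period. Both AL and DR mice were killed early in that period, the DR mice without the last portion. The paper on these data describes the AL and DR mice and does not mention the KD mice. Of the KD diet the labels give the name only. Its composition, its start and the time of killing are not given in the sources used here. The sequenced AL and DR mice were chosen from larger groups by RNA quality. Tissue came from both the middle and the lateral lobes, and the deep nuclei were left out. The 12 libraries held between 31712084 and 40798644 counts, and a two-sided exact permutation test of the totals gave p = 0.6 for DR against AL, 0.8 for KD against AL and 0.257 for DR against KD. All 10 listed markers each of Purkinje cells, granule cells, molecular layer interneurons and Bergmann glia passed the filter on low counts. The summed level of 10 markers of brainstem and cerebellar nuclei was at most 8.428 CPM (counts scaled to the total of the library), that of 10 choroid plexus markers was at most 28.97 CPM and that of 10 forebrain neuron markers was 96.82 to 125.2 CPM, of which Neurod2 alone gave diet means of 96.08 to 108.9 CPM.

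An AMPA receptor is an assembly of Gria subunits around a cation pore, and the subunits present set how it conducts. The Gria2 transcript is edited by the enzyme encoded by Adarb1 at the codon of the Q/R site, where a glutamine codon in the gene is read as arginine, and receptors that hold edited Gria2 protein let little calcium through. TARPs, cornichons and CKAMPs bind to the assembled receptor and change its trafficking, gating and recovery from desensitization. In the cerebellar cortex, Bergmann glia are known for calcium-permeable receptors made of Gria1 and Gria4 protein without Gria2, Purkinje cells for receptors with Gria2 and Gria3, and granule cells for receptors with Gria2 and Gria4 that need Cacng2 (stargazin) to reach the surface.

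The stretch of coding sequence around the Q/R site is shown for the 4 subunits because it is where the subunits differ in function and because it shows how alike their genes are. It was read from GENCODE transcripts (GRCm38.p6) and runs 5′ to 3′ on the coding strand, with the Q/R codon in capitals.
Gria1: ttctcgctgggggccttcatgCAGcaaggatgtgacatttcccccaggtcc
Gria2: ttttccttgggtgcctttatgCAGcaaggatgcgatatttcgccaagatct
Gria3: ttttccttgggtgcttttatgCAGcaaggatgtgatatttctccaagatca
Gria4: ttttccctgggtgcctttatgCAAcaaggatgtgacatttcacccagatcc
The codon is that for glutamine in all 4 genes, written CAG in Gria1, Gria2 and Gria3 and CAA in Gria4. Over these 51 bases, Gria1 shares 40 with Gria2, Gria3 shares 47 and Gria4 shares 44. Elsewhere in the transcripts the longest run without a difference is 56 bases between Gria2 and Gria3, 55 between Gria2 and Gria4 and 40 between Gria1 and Gria2. Gria3 and Gria4 share a run of 59 bases that is a repeat of tc. Counts per gene do not tell edited from unedited Gria2 RNA, nor the alternatively spliced forms of a subunit.

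Of the members' loci, that of Gria1 lies on chromosome 11 from 57011387 to 57330244 (GRCm38.p6, plus strand), Gria2 on chromosome 3 from 80681450 to 80802835 (minus), Gria3 on chromosome X from 41400854 to 41678601 (plus) and Gria4 on chromosome 9 from 4417896 to 4796234 (minus). Cacng5 and Shisa6 are also on chromosome 11, from 107874605 to 107915055 and from 66211725 to 66525964 (both minus). Cacng2 spans 77991748 to 78120028 on chromosome 15 (minus), Cnih2 spans 5092871 to 5098418 on chromosome 19 (minus), Cnih3 spans 181352628 to 181460641 on chromosome 1 (plus) and Shisa9 spans 11984113 to 12270902 on chromosome 16 (plus). The library kit does not keep strand, so reads of overlapping genes cannot be told apart. The largest overlap of exonic bases was 5.862%, for Cacng2 with the opposite-strand gene A730060N03Rik, and the other 9 members shared at most 0.862% of theirs with a neighbour.

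Levels were first compared between the genes, as CPM divided by the exonic length of the gene in kilobases (kb). On AL the order was Gria1 at 103.0 ± 3.139 CPM per kb (SD, n = 4), Gria4 at 87.74 ± 0.7196, Gria2 at 44.09 ± 1.865, Cacng2 at 37.83 ± 1.25, Shisa6 at 31.46 ± 1.215 and Gria3 at 16.56 ± 0.6931. Cnih2 at 10.7 ± 0.9871 and Cacng5 at 9.689 ± 0.5511 CPM per kb came next with overlapping ranges, then Shisa9 at 6.08 ± 0.3663 and Cnih3 at 0.4689 ± 0.008051. The order was the same on DR and on KD, and only Cnih2 and Cacng5 overlapped among neighbours in it. Cacng2 (stargazin) was the most abundant auxiliary protein RNA of the list per kb, though Shisa6 was above it in mean CPM on all 3 diets, and Cnih3 was the scarcest, with 18 to 52 counts per library. The exonic length of Gria2 in the table is 15548 bases, against 10371 for its longest coding transcript, and without division by length Gria2 had the highest CPM of the 10 genes on all 3 diets.

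The first comparison asked which members differed between DR and AL mice. Of the 10 members, 4 passed an adjusted p of 0.05 (edgeR quasi-likelihood test, Benjamini-Hochberg over 19052 genes) and all 4 were lower on DR, against 3.06% of all genes tested called in either direction, 1.74% called lower and 1.32% called higher. Every DR library lay below every AL library for 7 members and above for 0, against 5.64% and 5.3% of all genes. The median log2 fold change (DR over AL) was -0.23 over the 10 members and 0.00 over all genes tested. The comparison of DR with KD uses the same DR libraries, so its values are given beside those of DR against AL for each gene. The background there was 4.94% of 19087 genes called, 2.43% lower on DR and 2.51% higher, and again 4 of 10 members were called, all lower. Every DR library lay below every KD library for 5 members and above for 1, against 6.03% and 5.79% of all genes. The members were chosen with earlier results of these data known, so these counts and medians, set against all genes, do not test the family. Some markers of Purkinje cells and Bergmann glia were also lower on DR, with the values given after those of the members. In bulk tissue, fewer cells of a type and less RNA per cell cannot be told apart.

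**Figure D1:**
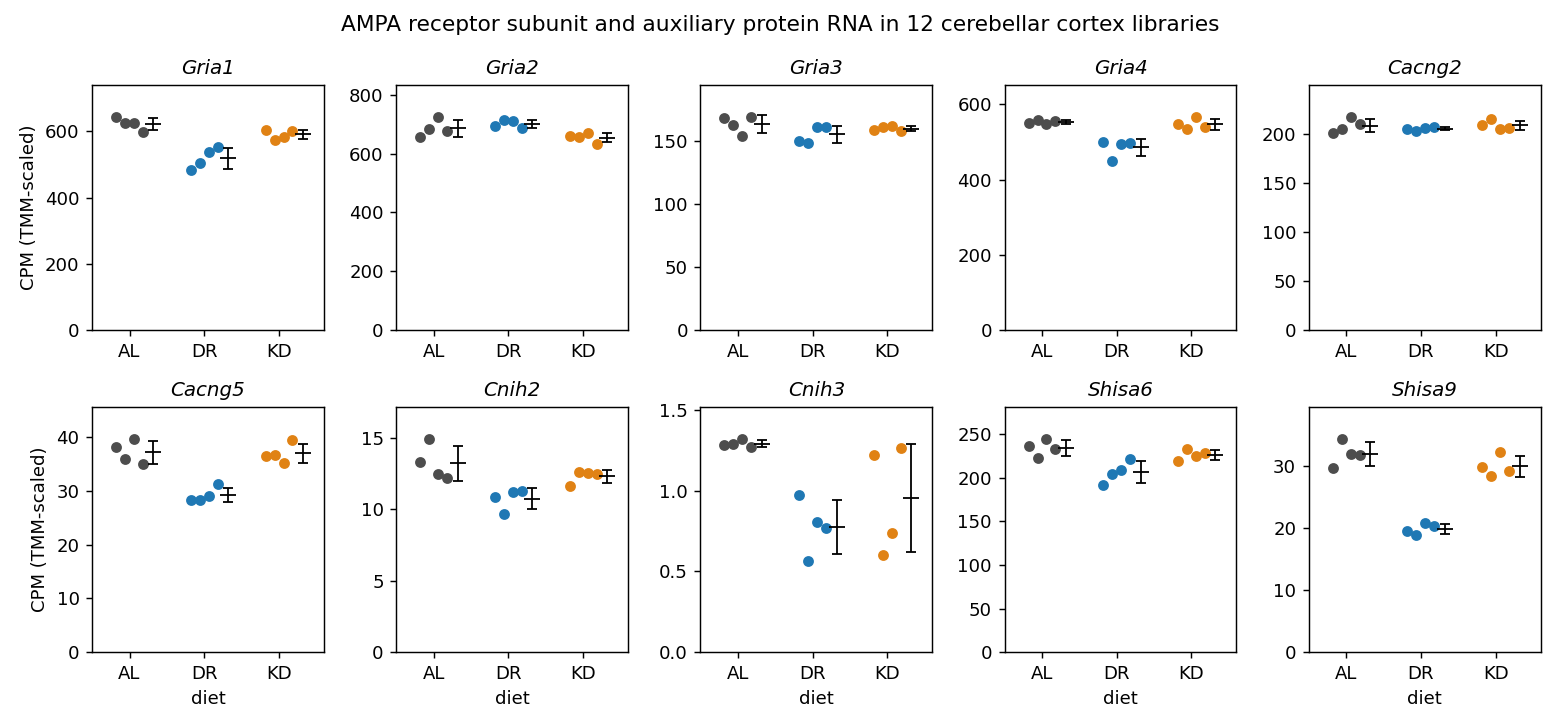
CPM of each member (vertical axis, linear from 0, a scale of its own in each panel) in the 4 AL, 4 DR and 4 KD libraries, one point a library, with mean and SD beside the points. The 4 DR libraries lie below all AL and KD libraries for Gria1, Gria4, Cacng5, Cnih2 and Shisa9, and overlap with both for Gria3 and Cacng2.

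Gria1 encodes the subunit GluA1, known for its regulated insertion at synapses. Its level was 643.4, 624.4, 625.5 and 597.4 CPM in the AL libraries, 483.1, 503.8, 536.2 and 553.4 CPM in the DR libraries and 605.1, 574.2, 583.4 and 600.5 CPM in the KD libraries. All DR libraries were below all others, and AL and KD overlapped. The log2 fold change of DR was -0.26 ± 0.050 (SE) against AL (adjusted p = 0.0118) and -0.19 ± 0.047 against KD (adjusted p = 0.0318). The call against AL held without each library in turn (adjusted p 0.0113 to 0.0481). That against KD was lost in 6 of 8 such fits, without DR replicate 1 (0.0578), 2 (0.0795) or 3 (0.0534) or without KD replicate 1 (0.108), 3 (0.0755) or 4 (0.0851).

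Gria4 encodes GluA4, a subunit with fast kinetics that is abundant in the cerebellum. Its level was 549.7, 558.0, 549.0 and 556.2 CPM on AL, 500.2, 450.0, 493.7 and 498.0 CPM on DR and 547.6, 534.7, 566.6 and 539.7 CPM on KD. The DR libraries were again below all others, with replicate 2 the lowest by a wide gap. The log2 fold change was -0.19 ± 0.045 against AL (adjusted p = 0.0349) and -0.17 ± 0.045 against KD (adjusted p = 0.0352), a decrease of 12.2% and 11.3% in mean CPM. Without DR replicate 2 the log2 fold change against AL was -0.15 and the adjusted p 0.0852. The call against AL was also lost without AL replicate 1 (0.0973), 2 (0.0961) or 4 (0.0934) and without DR replicate 3 (0.0784) or 4 (0.0532). Against KD it was lost without DR replicate 2 (0.0949) or 3 (0.0708) and without KD replicate 1 (0.0991), 2 (0.0527), 3 (0.119) or 4 (0.0714), while the log2 fold change stayed between -0.19 and -0.14.

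Gria2 encodes GluA2, the subunit that limits calcium entry. Its level was 655.2, 685.1, 724.7 and 677.3 CPM on AL, 692.7, 715.0, 711.7 and 685.7 CPM on DR and 658.8, 655.1, 669.7 and 633.1 CPM on KD. DR libraries lay inside the AL range and above all KD libraries. Against AL the log2 fold change was 0.03 with a 95% interval from -0.06 to 0.13 (adjusted p = 0.757), so a decrease of the size fitted for Gria1 or Gria4 is outside the interval. Against KD it was 0.10 with an interval from 0.02 to 0.19, and it did not pass the adjusted test (adjusted p = 0.177). The fitted log2 fold change of DR against AL was above 0 for Gria2 alone among the 10 members.

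Gria3 encodes GluA3, the least abundant subunit here. Its libraries ranged from 153.8 to 168.7 CPM on AL, from 147.8 to 161.1 CPM on DR and from 157.7 to 161.4 CPM on KD, so that all 3 diets overlapped. The log2 fold change of DR was -0.08 (95% interval -0.18 to 0.03, adjusted p = 0.436) against AL and -0.04 (-0.13 to 0.05, adjusted p = 0.651) against KD.

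Among the auxiliary proteins, the TARPs Cacng2 and Cacng5 had unlike values. Cacng2, which carries receptors to the surface of granule cells, ranged from 201.4 to 217.3 CPM on AL, from 203.2 to 207.2 CPM on DR and from 205.3 to 215.5 CPM on KD. Its log2 fold change of DR was -0.02 against AL (95% interval -0.11 to 0.07, adjusted p = 0.842) and -0.02 against KD (-0.11 to 0.06, adjusted p = 0.791). Cacng5 encodes a TARP known from Bergmann glia that acts on receptors without GluA2. Its level was 38.15, 35.85, 39.6 and 34.99 CPM on AL, 28.35, 28.18, 29.02 and 31.17 CPM on DR and 36.42, 36.62, 35.21 and 39.44 CPM on KD. The DR libraries were below all 8 others. The mean was 21.5% lower than on AL (log2 fold change -0.35 ± 0.058, adjusted p = 0.00573), and the log2 fold change against KD was -0.34 ± 0.055 (adjusted p = 0.00201), and both calls held without any one library.

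Shisa9 (CKAMP44), which slows the recovery of receptors from desensitization, had the largest difference among the called members. Its level was 29.6, 34.3, 31.82 and 31.75 CPM in the AL libraries, 19.54, 18.91, 20.74 and 20.31 CPM in the DR libraries and 29.77, 28.35, 32.26 and 29.19 CPM in the KD libraries. The highest DR library was below the lowest library of both other diets by more than the whole range of the DR libraries. The log2 fold change was -0.68 ± 0.061 against AL (adjusted p = 5.95e-05) and -0.59 ± 0.060 against KD (adjusted p = 5.3e-05), a mean 37.6% and 33.5% lower. Without any one library the adjusted p stayed at or under 0.000679 against AL and 0.000417 against KD. Shisa6 (CKAMP52), a protein that keeps receptors at synapses, had 236.9, 222.7, 244.5 and 233.3 CPM on AL, 191.9, 204.8, 208.4 and 221.7 CPM on DR and 219.1, 232.9, 225.5 and 228.0 CPM on KD. The DR libraries were below all AL libraries, while the highest of them was within the KD range. The log2 fold change of -0.18 ± 0.050 against AL missed the threshold (adjusted p = 0.0657), and so did that of -0.13 ± 0.047 against KD (adjusted p = 0.128). Without DR replicate 4, the highest DR library, Shisa6 passed against AL (adjusted p = 0.0455).

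The cornichons Cnih2 and Cnih3 promote export of AMPA receptors from the endoplasmic reticulum and slow their gating. Cnih2 had 13.33, 14.92, 12.48 and 12.2 CPM on AL, 10.85, 9.673, 11.22 and 11.27 CPM on DR and 11.64, 12.62, 12.53 and 12.46 CPM on KD, with the DR libraries below all others. Its log2 fold change was -0.30 ± 0.084 against AL (adjusted p = 0.0692) and -0.19 ± 0.074 against KD (adjusted p = 0.157), neither past the threshold. Cnih3 had 1.268 to 1.32 CPM on AL, 0.5616 to 0.9705 CPM on DR and 0.5995 to 1.261 CPM on KD. Its AL libraries lay close together above all DR and KD libraries, and the KD libraries were spread over most of the range of the other diets. At these low counts the log2 fold change of -0.72 ± 0.20 of DR against AL did not pass (adjusted p = 0.0731), nor did that of DR against KD (-0.30 ± 0.27, adjusted p = 0.617; -0.46 to -0.13 without 1 library). With DESeq2 as the test, with no filter on low counts or in a fit of all 12 libraries, Cnih2 (adjusted p 0.0243, 0.0251 and 0.0319) and Shisa6 (0.0177, 0.0126 and 0.0271) did pass against AL, which made 6 of 10 members called, while the genes called among all rose from 583 to 1012, 1258 and 862.

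**Figure D2:**
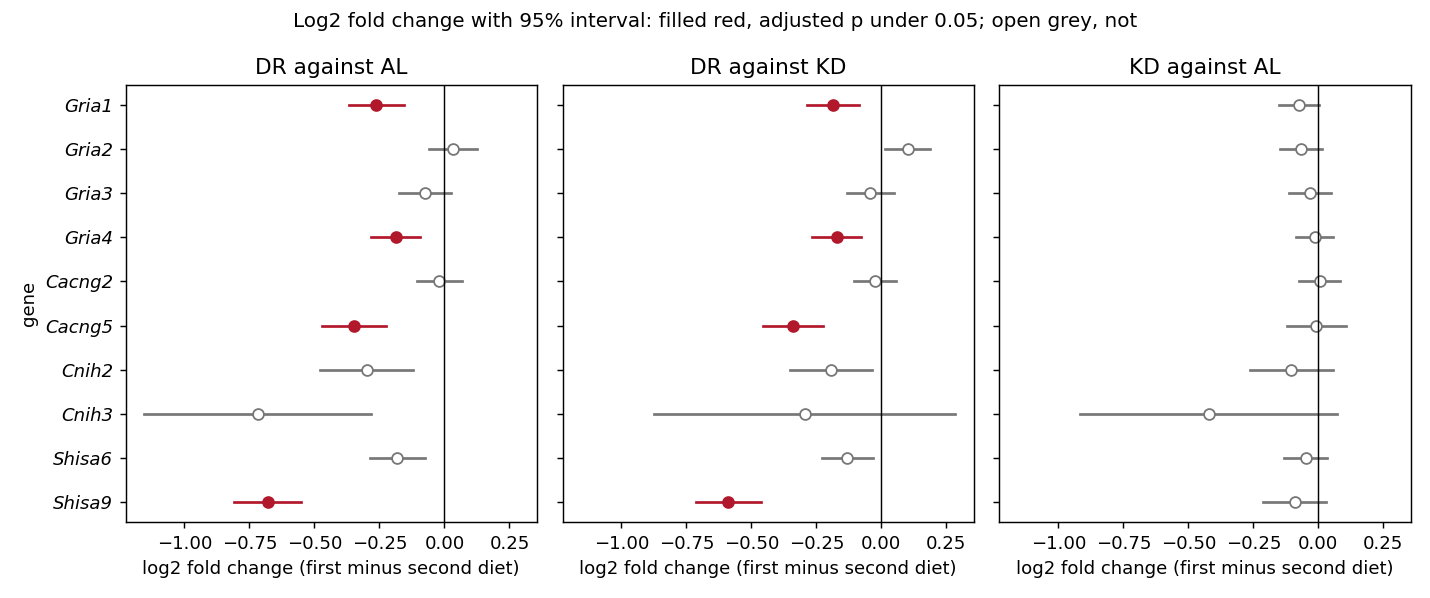
Log2 fold change of each member (horizontal axis, first diet minus second) with its 95% interval from the edgeR fit, for DR against AL, DR against KD and KD against AL. Filled red points passed an adjusted p of 0.05: Gria1, Gria4, Cacng5 and Shisa9 in both comparisons with DR, and none for KD against AL.

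The last comparison asked how the members on KD compared with those on AL. None of the 10 members passed the edgeR test, none had an unadjusted p under 0.05, and DESeq2 called 0 of them. Among all 19036 genes tested the background was 0.0% called by edgeR, with 928 genes (4.87%) at an unadjusted p under 0.05 and 10 called by DESeq2. The member with the smallest unadjusted p was Gria1, at 590.8 ± 14.5 CPM on KD against 622.7 ± 18.97 CPM on AL (SD, n = 4). Its log2 fold change in the edgeR fit was -0.07 ± 0.036 (adjusted p = 0.994). The 95% intervals of the log2 fold change of KD against AL were -0.15 to 0.00 for Gria1, -0.09 to 0.06 for Gria4, -0.12 to 0.11 for Cacng5 and -0.21 to 0.03 for Shisa9. For these 4 genes, the log2 fold change fitted for DR against AL lay outside the interval for KD against AL. They were picked because they were called lower on DR than on both other diets, and both comparisons use the AL libraries. That choice largely sets this placement in advance, so it is no further result. The lower level of Cnih3 on KD (log2 fold change -0.42, 95% interval -0.92 to 0.07, and -0.59 to -0.26 without 1 library), with no overlap of libraries, was found at the low counts given above, against 1.55% of all genes with every KD library below every AL library and 1.41% with every one above.

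The composition of the subunit RNA was described per library as the share of each subunit in the summed CPM per kb of the 4 genes. No test was run on these shares, since the members enter them together. Gria2 made up 16.67%, 17.46%, 18.44% and 17.58% of the sum in the AL libraries, 20.34%, 21.32%, 19.97% and 19.09% in the DR libraries and 17.26%, 17.69%, 17.52% and 16.85% in the KD libraries. The DR libraries were above all others, with a mean of 20.18% ± 0.9199 (SD, n = 4), against 17.54% ± 0.7246 on AL and 17.33% ± 0.3646 on KD. The share of Gria1 was 38.38% ± 1.334 on DR, between 36.5% and 39.65% and below all AL libraries (39.9% to 42.11%), while it overlapped with KD (39.27% to 41.12%). Gria4 had overlapping shares on all diets, with means of 34.9% on AL, 34.42% on DR and 35.74% on KD. The small share of Gria3 was 6.939% to 7.133% on DR, above the AL libraries (6.173% to 6.907%) and the KD libraries (6.541% to 6.836%).

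**Figure D3:**
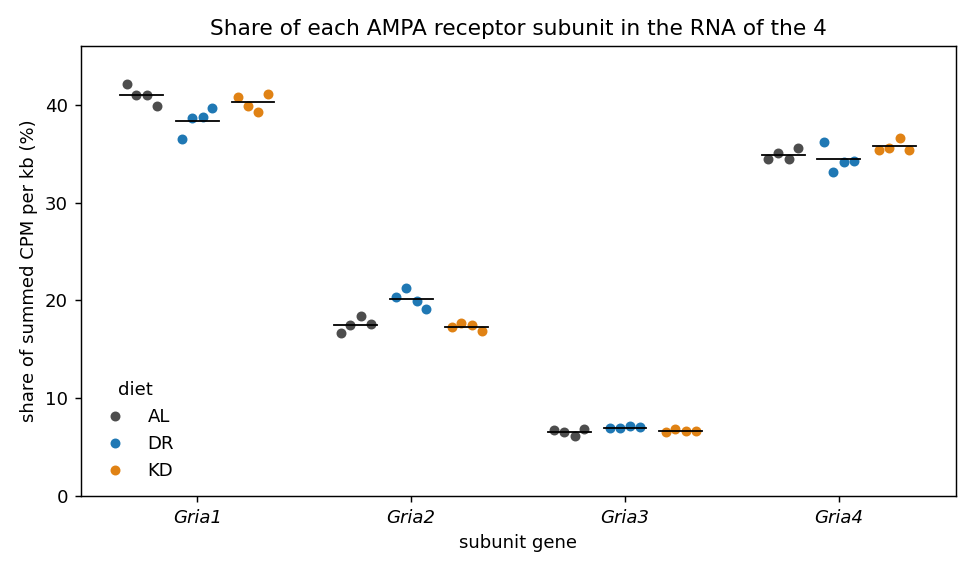
Share of each subunit gene in the summed CPM per kb of Gria1, Gria2, Gria3 and Gria4 (vertical axis, percent, from 0), one point a library, coloured by diet, with the mean as a line. The Gria2 points of the DR libraries (19.09% to 21.32%) lie above those of AL and KD (16.67% to 18.44%).

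The larger share of Gria2 on DR came with a smaller sum. The 4 subunits together reached 251.4 ± 2.471 CPM per kb on AL, 223.7 ± 7.482 on DR and 242.8 ± 3.568 on KD (SD, n = 4), and the DR libraries (215.7 to 231.0) were below all others. The level of Gria2 over that of Gria1 and Gria4 together was 0.2312 ± 0.01108 on AL, 0.2774 ± 0.01595 on DR and 0.228 ± 0.006137 on KD, with the lowest DR library (0.2585) above the highest of the other diets (0.2446). This ratio restates the lower Gria1 and Gria4 levels already called in the same libraries and is no further result. The size of each share depends on the length used for Gria2. With the longest coding transcript as the length, an alternative chosen after the data were seen, mean Gria2 shares were 21.22% on AL, 24.15% on DR and 20.96% on KD, and with CPM not divided by length they were 33.85%, 37.71% and 33.52%. The mean on DR was the highest in each case. A length is the same for a gene in every library, so these alternatives are no separate check of the difference between diets.

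All 43 other genes listed as known to bind, assemble, edit or traffic AMPA receptors were tested. For DR against AL 2 passed, 1 in each direction, where 3.06% of all genes tested were called. The median log2 fold change of the 43 was -0.03. Porcn, an enzyme of the endoplasmic reticulum that also binds AMPA receptors, was higher on DR at 249.3 ± 13.52 CPM against 206.8 ± 15.96 CPM on AL (log2 fold change 0.27 ± 0.057, adjusted p = 0.0211). Neither call held without AL replicate 1, AL replicate 4, DR replicate 2 or DR replicate 3, where 0 of the 43 genes passed, and 1 passed without AL replicate 2. Against KD, 3 of the 43 passed, where 4.94% of all genes tested were called, and the median was -0.03. Porcn was higher on DR (0.34 ± 0.050, adjusted p = 0.00118). Arc, the activity-induced gene whose protein drives AMPA receptor uptake, was lower at 16.59 ± 2.117 CPM against 21.56 ± 1.04 CPM on KD (-0.38 ± 0.082, adjusted p = 0.0139), and Nrn1 was lower at 132.4 ± 10.95 CPM against 164.0 ± 19.85 CPM (-0.31 ± 0.074, adjusted p = 0.0245). Without KD replicate 3, 1 of the 43 genes passed. None of the 43 passed for KD against AL with edgeR or DESeq2, and 3 had an unadjusted p under 0.05.

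By group, the 7 other TARPs, CKAMPs and Gsg1l had no called gene in any comparison, and their median log2 fold change of DR against AL was -0.02. The 9 factors of assembly and the endoplasmic reticulum, which include Adarb1, had 1 called gene against AL (Porcn) and a median of -0.06. Adarb1 itself was at 397.9 ± 20.64 CPM on DR, 417.2 ± 15.77 CPM on AL and 409.4 ± 8.41 CPM on KD, with adjusted p of 0.5 for DR against AL and 0.688 for DR against KD. The 11 extracellular organizers (such as Nptx1 and Nrn1) and the 12 proteins of cytoplasmic binding and trafficking (such as Grip1 and Arc) had no called gene against AL, with medians of 0.05 and -0.02. The 4 kinases all had a log2 fold change below 0, with 1 called lower and a median of -0.12.

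**Figure D4:**
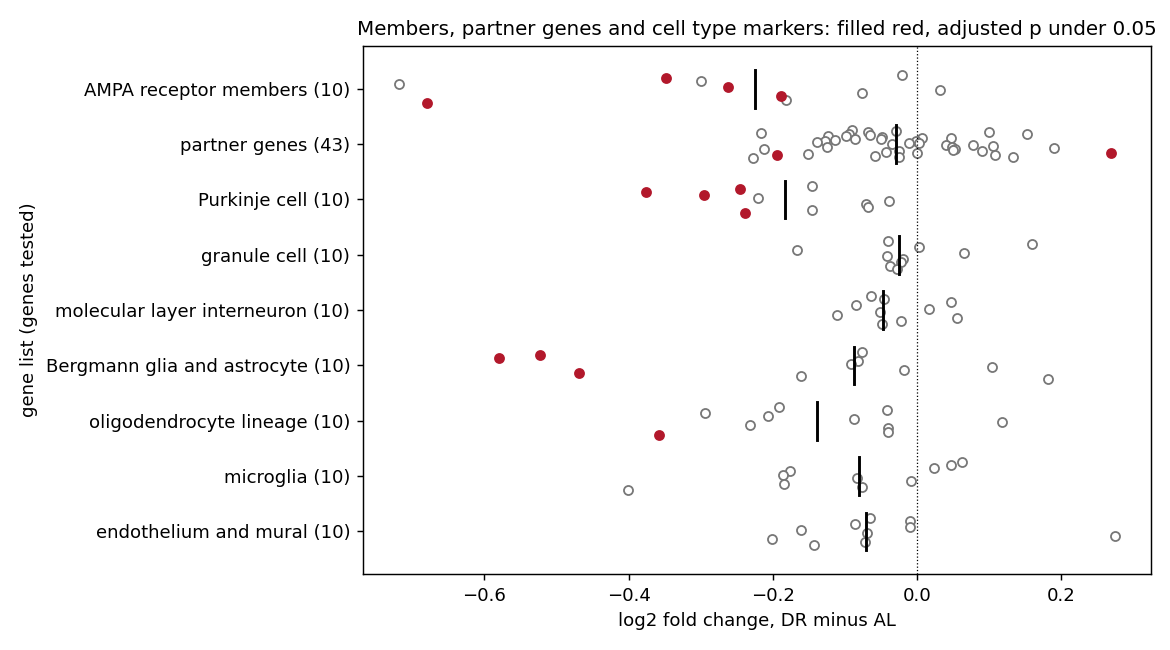
Log2 fold change of DR against AL (horizontal axis) for the 10 members, the 43 partner genes and lists of 10 markers for 7 kinds of cell, one point a gene, with the median of each list as a bar. Filled red points passed an adjusted p of 0.05, and called genes lower on DR are in the member, partner, Purkinje cell, Bergmann glia and oligodendrocyte lists.

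Some marker genes of cells that express these receptors were also lower on DR. Of 10 Purkinje cell markers, 4 were called lower on DR than on AL, among them Doc2b (log2 fold change -0.38) and Car8 (-0.25). Pcp2 (-0.04) and Calb1 (-0.15) were not called. All 10 had a log2 fold change below 0, with a median of -0.18. For 6 of them every DR library lay below every AL library, against 5.64% of all genes. The summed level of the 10 was 7056 to 7547 CPM on AL, 5925 to 6822 CPM on DR and 6949 to 7149 CPM on KD. Of 10 markers of Bergmann glia and astrocytes, 3 were called lower, namely Fabp7 (-0.58), Aqp4 (-0.52) and Hopx (-0.47), while Gdf10 (-0.08), Slc1a3 (-0.16), Gjb6 (0.10) and Timp4 (0.18) were not, and the summed level was 2136 to 2298 CPM on AL, 1931 to 2043 CPM on DR and 2091 to 2207 CPM on KD. Both sums on DR lay below all AL and KD libraries. The largest part of each sum came from a gene that missed the adjusted threshold in every comparison. Itpr1 had means of 4394 CPM on AL, 3769 CPM on DR and 4279 CPM on KD, and Slc1a3 had 1324, 1184 and 1287 CPM.

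Granule cell markers did not show this, with 0 of 10 called by edgeR against AL (2 at an unadjusted p under 0.05, against 3429 of all 19052 genes) and overlapping sums of 6722 to 7162 CPM on AL, 6816 to 6976 CPM on DR and 6794 to 7135 CPM on KD. Molecular layer interneuron markers had 0 of 10 called (0 at an unadjusted p under 0.05), with 1287 to 1346 CPM on AL, 1244 to 1300 CPM on DR and 1271 to 1324 CPM on KD. Of the 10 markers of the oligodendrocyte lineage, 1 was called lower on DR, and the sums overlapped (2340 to 2960 CPM on AL, 2185 to 2710 CPM on DR). Microglia markers had 0 of 10 called (3 unadjusted) and a sum of 73.52 to 76.82 CPM on DR, below AL (78.92 to 82.58 CPM) and overlapping with KD (76.36 to 87.73 CPM). Endothelial and mural markers had 0 of 10 called (2 unadjusted), with 291.1 to 328.2 CPM on AL and 287.1 to 300.5 CPM on DR, below the KD libraries (306.5 to 311.3 CPM). Against KD, the 4 Purkinje cell markers and the 3 Bergmann glia and astrocyte markers were called lower on DR as well, and so were Fat2, Mag, Kdr and Ttr, while Cbln3 of the granule cell list and Gjb6 of the Bergmann glia and astrocyte list were called higher. The libraries overlapped for Kdr and for the low and uneven Ttr, at 0.7619 ± 0.07391 CPM on DR and 3.412 ± 3.241 CPM on KD (SD). No marker of these lists was at 0 counts in all 12 libraries. The part of these cell types in the lower level of Gria1, Gria4, Cacng5 and Shisa9 was not tested.

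Over the 12 libraries, the genes with the pattern of log2 CPM most like that of a subunit were found among 15456 genes, as a description with no test, since the libraries share their diets and their preparation. For Gria1 these were Steap2 (Pearson r = 0.969), Arf3 (0.963) and Ptprm (0.957), and for Gria4 Rbm15b (0.972), the Purkinje cell gene Car8 (0.96) and Col9a2 (0.954). Within the diets, with the mean of each diet removed, r was 0.819, 0.89 and 0.927 for the genes of Gria1 and 0.856, 0.836 and 0.748 for those of Gria4. For Gria2 they were Cpeb4 (0.968, within diets 0.95), Cplane1 (0.934, 0.863) and Pan3 (0.934, 0.91), and for Gria3 the antisense transcript Cdiptos (0.932, 0.914), Gpt (0.911, 0.871) and Dmpk (0.911, 0.867).

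Promoter sequence, the 250 bases before the gene start in RefSeq (GRCm38.p6), was found for 6 of the 10 members: Gria2, Gria4, Cacng2, Cacng5, Cnih2 and Cnih3. Those of Gria2, which did not pass the test, and of Gria4 and Cacng5, which were lower on DR, are shown 5′ to 3′ on the strand of the gene, with GC boxes (GGGCGG on either strand) in capitals.
Gria2, chr3:80802836-80803085, minus strand: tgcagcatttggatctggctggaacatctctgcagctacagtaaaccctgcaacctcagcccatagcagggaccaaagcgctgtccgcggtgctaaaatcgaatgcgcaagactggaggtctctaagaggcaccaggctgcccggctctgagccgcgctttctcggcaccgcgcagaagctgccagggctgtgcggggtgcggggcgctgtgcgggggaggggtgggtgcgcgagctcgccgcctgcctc
Gria4, chr9:4796235-4796484, minus strand: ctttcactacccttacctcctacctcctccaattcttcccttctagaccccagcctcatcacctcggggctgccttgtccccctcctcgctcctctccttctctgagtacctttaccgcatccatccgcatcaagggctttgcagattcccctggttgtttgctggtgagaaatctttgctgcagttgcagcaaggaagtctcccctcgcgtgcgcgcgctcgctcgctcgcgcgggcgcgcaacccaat
Cacng5, chr11:107915056-107915305, minus strand: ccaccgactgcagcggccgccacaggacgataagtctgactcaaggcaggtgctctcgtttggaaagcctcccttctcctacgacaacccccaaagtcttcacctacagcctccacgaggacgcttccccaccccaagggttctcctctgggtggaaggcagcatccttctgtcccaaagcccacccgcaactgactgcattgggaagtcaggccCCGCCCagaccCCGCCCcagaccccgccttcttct
The GC box is in 32.7% of 32851 promoter windows of this length. It is found 2 times in the window of Cacng5 shown and not in a further Cacng5 window at a downstream start (chr11:107911363-107911612), 3 times in that of Cnih2 and 1 time in that of Cnih3, and has no match in those of Gria2, Gria4 and Cacng2. The window of Cacng2 lies inside a transcript of that gene. All 3 windows shown are richer in G and C (64.8%, 58.8% and 62.0%) than the median window (52.4%). Of the other motifs searched on both strands, the E-box CACGTG (in 6.02% of windows) had 1 match, in Cnih3, and the cyclic AMP response element TGACGTCA (1.55%), its core TGACG (17.8%, which also counts every full element), the palindromic NRF-1 site (0.782%), the palindromic glucocorticoid response element (0.00913%) and the heat shock element (0.466%) had none in these members. Such matches say which letters are in the window and nothing of binding.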

How the data were processed

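Poly(A) RNA of 12 mice was sequenced as paired ends. The authors removed adaptors with Trimmomatic 0.39, aligned reads to GRCm38.p6 with STAR 2.7.0f and counted reads per gene with featureCounts (Subread 1.6.4), according to the submitters' processing notes, and the deposited table holds raw counts without normalization, with the exonic length of each gene. Whether strand was used and how reads with several matches were treated is not given in the sources used here. Diets came from the sample labels, which name no batch. Replicates were numbered in accession order, so the numbers do not pair mice, and no 2 libraries of a diet agreed within sampling noise (chi-square per gene at least 4.95).

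From the counts, edgeR 4.0.16 (R 4.3.3) was run for each pair of diets on its own 8 libraries, with no covariate: filterByExpr (minimum count 10, minimum total 15), TMM, the quasi-likelihood test, and Benjamini-Hochberg adjustment over all tested genes at 0.05. SE is the fold change divided by the root of the F statistic. CPM used TMM factors of all 12 libraries (0.9906 to 1.02). The script was tested on simulated data, with changes larger than those fitted for Gria1, Gria4 and Cacng5. Alternatives were DESeq2 1.42.0, other scalings and filters, 1 fit of all libraries, and leaving out each library. The 10 members, the 43 partner genes and the marker lists were chosen with earlier results of these data known. Named besides the members were partner genes called in any comparison, up to 5 called markers a cell type, and the 3 nearest genes of each subunit by Pearson r of log2 CPM (prior count 2), low genes under a mean of 1 CPM left out. Adarb1 and markers named as not called were chosen outside this rule, after their values were seen. Symbols were matched for 54723 of 54752 genes. Some genes that this rule names are not reported here.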

Additional observations from a re-analysis of the deposited data

Results flagged for a closer look

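In Gria4, the CPM of DR replicate 2 was 450.0 while the other DR libraries had 493.7 to 500.2, so that the gap to the nearest of them was 0.872 of the whole range of the group, above Dixon's critical value for 4 samples. In Cnih2, the CPM of KD replicate 1 was 11.64 while the other KD libraries had 12.46 to 12.62, a gap of 0.839 of the range. Over the 42 groups examined in this way, chance alone gives about 1 such gap in 20 groups. Both calls of Gria4 on DR were lost without DR replicate 2, with log2 fold changes of -0.15 against AL and -0.14 against KD.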

How the results depend on the processing

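Gria1, Cacng5 and Shisa9 (DR against AL) and Cacng5 and Shisa9 (DR against KD) passed under every alternative run. Gria4 missed with library size only as scaling (adjusted p = 0.0536 against AL, 0.0549 against KD). That scaling moved the called genes from 43.2% to 57.0% higher on DR against AL and from 50.8% to 62.1% against KD, the median of all genes by less than 0.1 (log2), and gave Cacng2 a log2 fold change of 0.0004 on DR against AL. DR against AL had 583 genes called, 1012 with DESeq2, 1258 with no filter and 235 to 712 without 1 library; DR against KD had 942, 1503 with no filter and 467 to 946; KD against AL had 0, 10 with DESeq2, 118 with no filter and 0 to 6. Members called were 3 to 4 against AL and 2 to 4 against KD without 1 library, 2 being left without DR replicate 2 or 3 or KD replicate 1, 3 or 4. Partner genes called were 4 against AL with no filter and 0 to 3 without 1 library, and against KD 5 with DESeq2, 5 with no filter and 1 to 5 without 1 library. For KD against AL, leaving out 1 library turned Cacng2 (-0.0113 to 0.0276; below 0 without AL replicate 1 or 2 or KD replicate 2, at -0.0113, -0.0046 and -0.0101) and Cacng5 (-0.0426 to 0.0255; above 0 without AL replicate 1 or 3 or KD replicate 3, at 0.005, 0.0255 and 0.016). The cause of these shifts was not tested.

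Shares without division by length were, on AL, DR and KD, 30.75%, 27.88% and 30.28% for Gria1, 33.85%, 37.71% and 33.52% for Gria2, 8.065%, 8.318% and 8.173% for Gria3 and 27.33%, 26.09% and 28.03% for Gria4. With the longest coding transcript they were 36.04%, 33.38% and 35.41%, 21.22%, 24.15% and 20.96%, 10.09%, 10.64% and 10.21%, and 32.64%, 31.84% and 33.42%.

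No paired analysis was possible because the labels give no replicate number that diets share. With 18 to 52 counts per library, depth limits Cnih3 most, and a change of the size fitted for Gria1 would not be detectable for it. Counts per gene do not show editing, splice forms or protein.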
